A study of Mus musculus with 34 samples.

Results

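Seminiferous tubules of stages IV-VI that received a dnRARa lentivirus were compared with tubules of the same stages that received a Venus lentivirus. The comparison rests on 4 of the 34 arrays of the series, 2 for dnRARa and 2 for Venus, chosen by their titles and paired by replicate number. As the name reads, dnRARa is a dominant-negative retinoic acid receptor alpha, and Venus is a yellow fluorescent protein that serves as the control cargo. A gene was kept as moving one way when its difference had the same sign in both replicate pairs, which held for 15607 of the 22406 genes tested (69.7%): 7478 were higher (33.4%) and 8129 lower (36.3%) in dnRARa.

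The study asked which genes of Sertoli cells change with the stage of the tubule under retinoic acid signalling. The dnRARa group and the Venus group both came from C57BL6/j mice of 6 to 8 weeks whose adult testes had been injected with lentivirus 5 days earlier. Set beside them were the dnRARa and Venus tubules of stages I-III, VII-VIII and IX-XII (12 arrays), which had the same strain, age and interval after injection, and 8 arrays of tubules from the same 4 stage groups that had no virus. Cultured primary Sertoli cells given retinoic acid for 24 h, and their vehicle control, were on 2 arrays each. The labels do not give the promoter that drives the transgene, the share of cells infected, how the tubules were staged, or whether several animals were pooled for an array. The arrays used here as stages VII-VIII are titled VI-VIII, while their source description gives VII-VIII. The design text calls the replicates biological duplicates, but no label names the animals, so the p-values measure the spread between these samples.

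Background on the tissue helps in reading the genes below. Spermatogenesis runs along the seminiferous tubule in a repeating series of stages, each a fixed set of germ cell generations held by Sertoli cells, the somatic cells that nurse them. Retinoic acid enters the nucleus, binds receptors of the RAR family paired with RXR receptors, and changes the transcription of genes near their binding sites; a dominant-negative receptor occupies those sites without activating the genes. In this tissue retinoic acid is known for starting meiosis and for acting on Sertoli cells around the stages in which the blood-testis barrier opens.

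Values below are levels on a log2 scale, each array's processed signal minus that array's 75th percentile, so 0 marks the 75th percentile of an array and the most negative values are near background. Differences are dnRARa minus Venus in the same log2 unit, with the standard error of a limma fit over all 24 tubule arrays (12 groups of 2), and adjusted p-values are limma's moderated two-sided test with Benjamini-Hochberg adjustment over all genes tested. A gene is said to be called, or to have risen or fallen, at an adjusted p under 0.05.

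Of the 4 arrays, dnRARa replicate 2 stood apart in signal: 60.6% of its spots were well above background, against 73.4% on dnRARa replicate 1 and 72.0% and 71.3% on the Venus arrays. The dimmest spot above background lay at -5.23 on that array, against -6.91 on dnRARa replicate 1 and -6.85 and -6.68 on the Venus arrays. Replicate 1 of both groups was scanned on one day and replicate 2 on another, and each of the 4 slides concerned held a single virus arm, so slide and virus cannot be told apart in this difference. Correlations between replicates over all genes were 0.984 for dnRARa and 0.993 for Venus. A tubule is a mixture, and on these arrays fewer cells of a type and less RNA per cell cannot be told apart.

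The targeted receptor itself is no check of the labels, since the position of the array's Rara probe relative to the transgene is not given in the sources used here. Rara levels were -4.79 and -4.63 in dnRARa, against -5.20 and -5.01 in Venus. Both dnRARa arrays were above both Venus arrays, but the difference of 0.39 was not called (SE 0.30, limma adjusted p = 0.579). Stra8, the gene that retinoic acid switches on in germ cells that enter meiosis, was level between the arms at 1.03 and 0.71 in dnRARa, against 1.01 and 0.75 in Venus. The Sertoli cell transcription factor Sox9 was at 0.27 and 0.07 in dnRARa, against 0.08 and 0.30 in Venus. Of the other 9 genes looked up in both arms, none that could be tested was called either. Differences ran from -1.04 for Cyp26a1, a retinoic acid degrading enzyme for which neither dnRARa array was well above background, to 0.87 for the receptor gene Rarg, and Rarb was not well above background in either arm and was not tested.

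In all, 490 genes were called (2.19%), 220 higher (0.982%) and 270 lower (1.21%) in dnRARa, and 3597 had an unadjusted p under 0.05. The called rises had a median of 1.03 and reached 3.64; the called falls had a median of -1.05 and reached -5.30. A gene symbol could be given to 96 of the rises and 177 of the falls. Every called gene moved the same way in both pairs, with both dnRARa arrays outside the range of the Venus arrays; so separated were 12240 of all genes tested (54.6%), 6019 upwards (26.9%) and 6221 downwards (27.8%). Differences of at least 1.5-fold in both pairs were seen in 887 genes upwards (3.96%) and 709 downwards (3.16%), and of at least 2-fold in 257 genes upwards (1.15%) and 189 downwards (0.844%). The count fell to a small part when dnRARa replicate 2 or either Venus array was left out. Without dnRARa replicate 1 the count stayed similar, but many of the genes called then were not among the 490. The set of called genes thus depends on all 4 arrays. With only the 4 arrays in the model limma called 0 genes, with 2581 at an unadjusted p under 0.05. Median scaling called 94 higher and 180 lower, and a normexp background correction 11 higher and 24 lower. Just past the threshold, at an adjusted p of 0.0505, lay Ccdc68 (-1.03), Mgarp (-1.27), Cd59a (1.56), Rassf8 (1.37) and Rev1 (0.82).

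**Figure D1:**
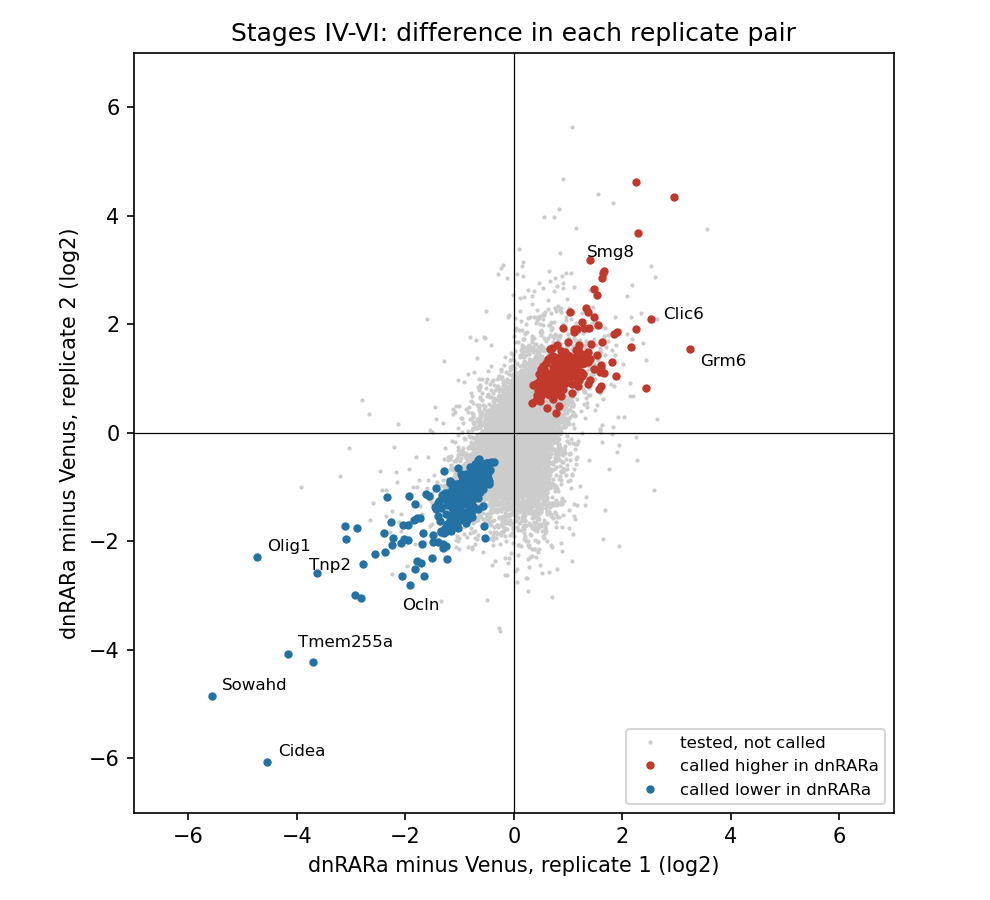
Difference of dnRARa minus Venus in stages IV-VI (log2) in replicate pair 1 (horizontal) and pair 2 (vertical), 1 point per gene tested, with the 220 called rises in red and the 270 called falls in blue. Over all genes the 2 pairs correlated at r = 0.544, and pair 2 spread more widely (SD 0.60) than pair 1 (SD 0.41).

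Among the largest fitted falls was Cidea, which codes for a lipid droplet protein that promotes droplet fusion in fat cells. Its levels were -4.88 and -7.38 in dnRARa, against -0.34 and -1.32 in Venus. Both Venus arrays were far above both dnRARa arrays, and 1 of the 2 dnRARa arrays was not well above background. The difference was -5.30 (SE 0.92, limma adjusted p = 0.0142), and its adjusted p was 0.228 without dnRARa replicate 2, 0.124 without Venus replicate 1 and 0.0648 without Venus replicate 2. Sowahd, which codes for an ankyrin repeat protein, was at -7.26 and -7.28 in dnRARa, against -1.69 and -2.42 in Venus. Neither dnRARa array measured it above background, so it was at least 16.1-fold lower, with a limma adjusted p of 0.0011. A fold of this kind is a bound, taken against the lowest signal that was well above background on those arrays. Tmem255a, which codes for a transmembrane protein, was at -4.97 and -5.72 in dnRARa, against -0.80 and -1.65 in Venus, a difference of -4.12 (SE 0.49, limma adjusted p = 0.0028). The groups were well apart, 1 of the 2 dnRARa arrays was not well above background, and a dimmer probe of the gene gave -1.16.

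Occludin, the tight junction protein encoded by Ocln, belongs to the barrier that Sertoli cells form between them. Ocln levels were -6.27 and -7.03 in dnRARa, against -4.36 and -4.23 in Venus. Its signal was low in both arms, 1 of the 2 dnRARa arrays was not well above background, and the Venus arrays were the higher. The difference was -2.36 (SE 0.39, limma adjusted p = 0.0120), with adjusted p-values of 0.192, 0.0672 and 0.0844 without dnRARa replicate 2, Venus replicate 1 and Venus replicate 2. Its other probe was not well above background on any of the 4 arrays. Of the 16 genes tested from the tight junction list used here, Ocln was the 1 that fell and none rose. Over all genes tested, 1.21% fell and 0.982% rose, so a list this short gives only a rough share. The claudin gene Cldn23 is not on that list and was among the largest rises, given below. Of the 16, 12 were below 0 and the median difference was -0.30, beside -0.03 over all genes tested. Cldn3 differed by -1.37 and Cldn13 by -0.81, differences that were not called (limma adjusted p = 0.0685 and 0.0589), and Cldn11, the main claudin of adult Sertoli junctions, differed by 0.09. Espn, the espin gene of the actin bundles at Sertoli junctions, fell by 0.74 (SE 0.16, limma adjusted p = 0.0343). It was the 1 called gene of 15 adhesion genes tested, beside 2.19% of all genes. Its call was lost whichever of the 4 arrays was left out.

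The other large falls that were not well above background in dnRARa were Olig1, a transcription factor best known from oligodendrocytes, and Oit3. Olig1 was at -8.84 and -7.21 in dnRARa, against -4.11 and -4.91 in Venus, and was at least 2.95-fold lower (limma adjusted p = 0.0196). Oit3 was at -7.21 and -7.17 in dnRARa, against -3.58 and -4.58 in Venus, at least 3.96-fold lower at an adjusted p of 0.0499 by limma, which lay just inside the threshold. Both dnRARa arrays of each gene were not well above background while both Venus arrays were. The call of Oit3 was lost whichever array was left out, and that of Olig1 with any array left out other than dnRARa replicate 2. Esyt3, an extended synaptotagmin of membrane contact sites, was at -4.14 and -4.45 in dnRARa, against -1.58 and -2.21 in Venus. The difference was -2.40 (SE 0.40, limma adjusted p = 0.0132). Its second probe gave 0.93, so the direction of Esyt3 depends on the probe.

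Tnp2, a transition protein that replaces histones in condensing spermatids, was at 3.24 and 3.09 in dnRARa, against 6.02 and 5.51 in Venus. All 4 arrays were bright, the groups lay well apart, and the difference was -2.60 (SE 0.34, limma adjusted p = 0.0040). Its partner Tnp1 was at 6.19 and 6.31 in dnRARa, against 8.01 and 7.62 in Venus (difference -1.56, SE 0.29, limma adjusted p = 0.0200). Tnp1 was called in the fit of all arrays and in none of the fits that left out 1 of the 4 arrays, where its adjusted p lay between 0.0563 and 0.181. Prm1, a protamine that packs sperm DNA, gave -1.49 by its brightest probe (limma adjusted p = 0.0120), but its 2 other probes gave 0.11 and 0.25 at similar brightness, so its fall depends on the probe. Prm2 differed by 0.18, which was not called. Of the 12 elongating spermatid markers tested, 3 fell and none rose, beside 1.21% and 0.982% of all genes tested. Their median difference was -0.06. Odf3b, a gene named for the outer dense fibres of the sperm tail, was at -0.09 and -0.84 in dnRARa, against 1.98 and 1.79 in Venus (difference -2.35, SE 0.26, limma adjusted p = 0.0020). Cyp2a12, a cytochrome P450, was at -2.71 and -2.91 in dnRARa, against -0.46 and -0.85 in Venus (difference -2.16, SE 0.28, limma adjusted p = 0.0040). Tex37, a testis-expressed gene, was at 1.68 and 1.42 in dnRARa, against 3.92 and 3.36 in Venus (difference -2.09, SE 0.40, limma adjusted p = 0.0218). In each of these 3 genes both dnRARa arrays were the lower.

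The transcription repressor gene Helt completed the 12 largest falls with a symbol. It was at -2.35 and -3.06 in dnRARa, against -0.52 and -0.55 in Venus, a difference of -2.17 (SE 0.41, limma adjusted p = 0.0209). Of the 37 named genes that were called, Sowahd, Tmem255a, Tnp2, Odf3b and Cyp2a12 kept the call whichever of the 4 arrays was left out. All 37 kept their direction in each of these 4 fits, which was fixed in advance because their arms do not overlap. Most lost the call without dnRARa replicate 2, and fewer lost it without dnRARa replicate 1.

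**Figure D2:**
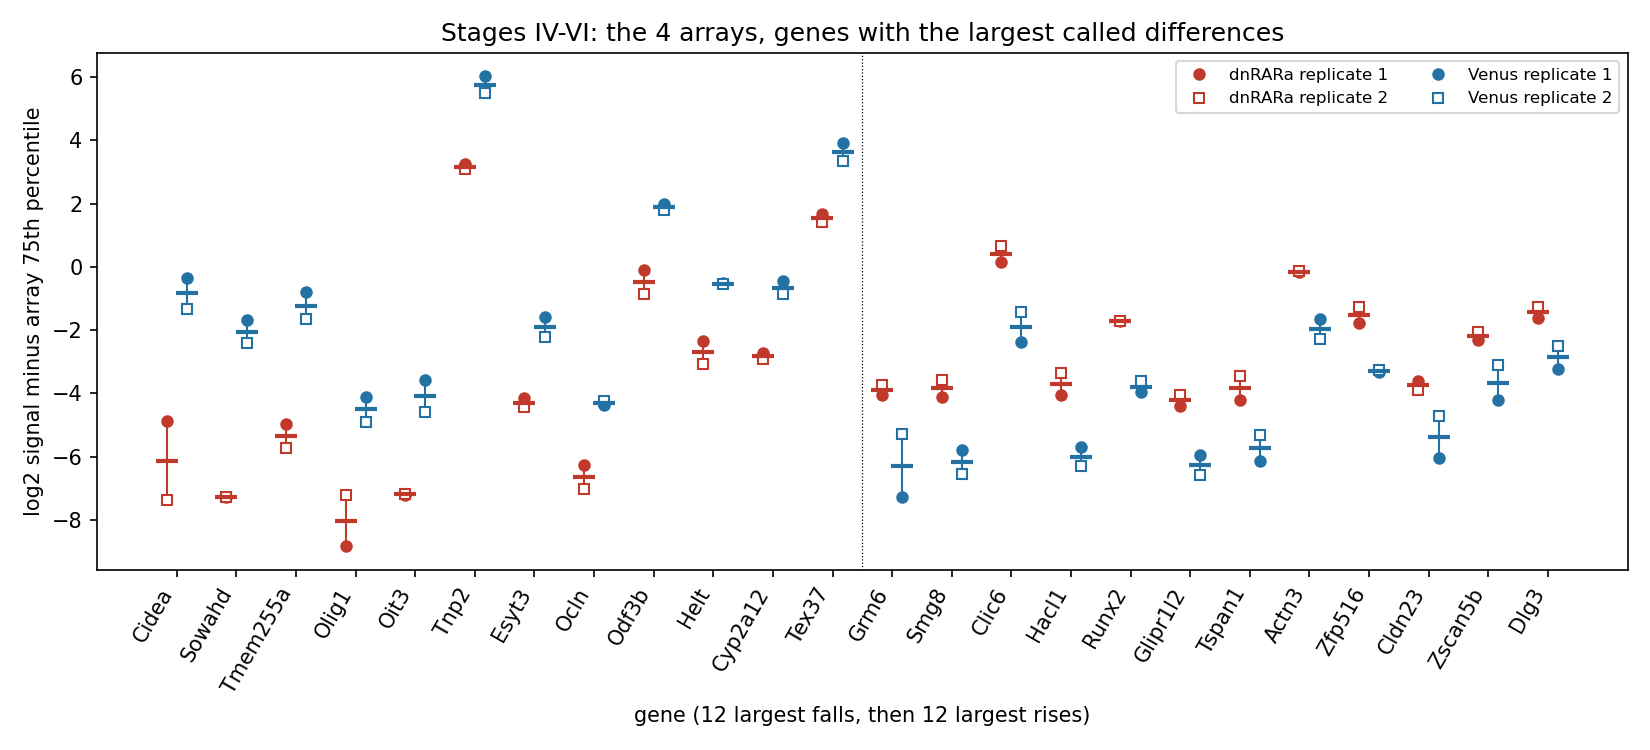
Level of the 12 largest called falls and 12 largest called rises in stages IV-VI on each array (log2 signal minus the array's 75th percentile), with dnRARa in red to the left of Venus in blue, filled circles for replicate 1, open squares for replicate 2 and bars for the mean of 2 arrays. The arms do not overlap in any of the 24 genes, and Grm6 and Cidea have the widest gaps between replicates, with Grm6 at -7.29 and -5.28 in Venus.

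Among the 12 largest rises, Clic6, a chloride intracellular channel gene, was the brightest in dnRARa. Its levels were 0.15 and 0.67 in dnRARa, against -2.38 and -1.43 in Venus, and the difference was 2.31 (SE 0.33, limma adjusted p = 0.0067). Both dnRARa arrays were higher, and a dimmer probe of the gene gave 2.33. Without dnRARa replicate 2 its adjusted p was 0.0991, and without Venus replicate 1 it was 0.0653. Runx2, a transcription factor known from bone formation, was at -1.72 and -1.70 in dnRARa, against -3.97 and -3.61 in Venus (difference 2.08, SE 0.45, limma adjusted p = 0.0343). The arms were clearly separate, its 3 other probes were dim, and its adjusted p lay between 0.0785 and 0.308 when any 1 array was left out. Actn3, a muscle alpha-actinin, was at -0.17 and -0.14 in dnRARa, against -1.65 and -2.28 in Venus (difference 1.81, SE 0.31, limma adjusted p = 0.0132). The difference was again larger than the gap between replicates.

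Other rises were low in signal. Grm6, a glutamate receptor known from the retina, was at -4.05 and -3.74 in dnRARa, against -7.29 and -5.28 in Venus, where 1 of the 2 arrays was not well above background. Smg8, a regulator of the SMG1 kinase of mRNA decay, was at -4.12 and -3.57 in dnRARa, against -5.78 and -6.54 in Venus. Hacl1, a peroxisomal fatty acid lyase, was at -4.06 and -3.35 in dnRARa, against -5.71 and -6.29 in Venus. In all 3 genes the Venus arrays were the lower, by 2.39 for Grm6, 2.32 for Smg8 and 2.29 for Hacl1 (limma adjusted p = 0.0179, 0.0276 and 0.0196). The remaining rises among the 12 largest were Glipr1l2 (2.04, with 1 of the 2 Venus arrays not well above background), Tspan1 (1.88), the zinc finger gene Zfp516 (1.77), the claudin gene Cldn23 (1.63), Zscan5b (1.47) and Dlg3 (1.42), a scaffold of cell junctions and synapses. Zscan5b, at a limma adjusted p of 0.0488, lay just inside the threshold, and a second probe of Tspan1 gave 0.61.

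Promoter windows of 300 bases around the gene start were available from RefSeq on build GRCm38.p6 for 9 of the 12 largest falls and 6 of the 12 largest rises. The hexamer AGGTCA, to which a single subunit of many nuclear receptors binds, was searched on both strands, as were its direct repeats DR5, DR2 and DR1, in which 5, 2 or 1 bases of any kind lie between a pair of hexamers. The hexamer was in 3 of the 10 windows of the falls (Tnp2, Tex37 and 1 of the 2 windows of Ocln) and 1 of the 7 windows of the rises (Runx2), beside 16.3% of all 32851 windows, and the repeats overlap with the hexamer and were in no window of these genes. They were in 0.00913%, 0.00913% and 0.0396% of all windows. The 4 windows that follow are a selection: Sowahd, Tnp2 and Ocln from the falls and Runx2 from the rises. They were not taken in order of size. Among genes not shown, Tmem255a differed by more than Tnp2, Esyt3 by more than Ocln, and Grm6, Smg8 and Hacl1 by more than Runx2. None of these 5 genes had the hexamer in its window, so the windows shown over-represent matches. Each runs 5′ to 3′ on the strand of the gene, and capitals mark the hexamer or its reverse complement. They lie at chrX:37048595-37048894 on the plus strand (Sowahd), chr16:10788606-10788905 on the minus strand (Tnp2), chr13:100552669-100552968 on the minus strand (Ocln) and chr17:44814578-44814877 on the minus strand (Runx2).
Sowahd: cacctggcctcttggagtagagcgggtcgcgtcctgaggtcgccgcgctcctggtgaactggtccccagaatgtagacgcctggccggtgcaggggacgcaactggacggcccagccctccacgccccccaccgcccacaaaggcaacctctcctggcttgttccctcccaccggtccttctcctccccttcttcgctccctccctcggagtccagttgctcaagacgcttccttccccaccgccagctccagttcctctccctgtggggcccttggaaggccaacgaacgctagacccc
Tnp2: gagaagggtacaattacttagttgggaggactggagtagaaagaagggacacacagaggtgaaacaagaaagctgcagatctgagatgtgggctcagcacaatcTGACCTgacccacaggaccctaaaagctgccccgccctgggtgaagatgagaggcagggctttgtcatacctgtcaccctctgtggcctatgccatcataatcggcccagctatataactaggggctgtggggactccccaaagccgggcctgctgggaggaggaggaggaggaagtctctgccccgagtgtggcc
Ocln: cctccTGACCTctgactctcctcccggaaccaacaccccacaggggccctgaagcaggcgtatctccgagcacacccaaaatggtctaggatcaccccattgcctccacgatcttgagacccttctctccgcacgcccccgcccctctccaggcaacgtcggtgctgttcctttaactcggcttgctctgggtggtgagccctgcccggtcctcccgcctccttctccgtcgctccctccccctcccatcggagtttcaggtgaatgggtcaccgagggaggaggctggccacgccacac
Runx2: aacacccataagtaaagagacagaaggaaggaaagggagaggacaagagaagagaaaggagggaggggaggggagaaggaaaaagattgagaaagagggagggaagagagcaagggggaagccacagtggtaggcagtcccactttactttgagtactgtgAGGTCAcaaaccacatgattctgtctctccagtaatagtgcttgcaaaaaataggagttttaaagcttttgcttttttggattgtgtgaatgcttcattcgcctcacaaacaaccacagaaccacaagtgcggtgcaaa
The Ocln window shown is the one with the match. Counted from the gene start, the first base of the match lies at -146 in Tnp2, -245 in Ocln and -89 in Runx2. The Sowahd window holds no match, and a match describes letters only.

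The differences were next set beside the stage profile of tubules without virus, which shares no array with dnRARa or Venus. The untreated arrays of I-III, IV-VI and VII-VIII were each on a slide of their own, which both replicates of the group shared. Stage and slide therefore cannot be told apart in the untreated steps from I-III to IV-VI and from IV-VI to VII-VIII. From stages I-III to IV-VI, 3337 of 18570 genes were called in untreated tubules (18%), 1762 higher (9.49%) and 1575 lower (8.48%). Of the 220 dnRARa rises, 209 were tested there: 129 rose from I-III to IV-VI (61.7%) and none fell. Of the 270 dnRARa falls, 259 were tested: 216 fell (83.4%) and 1 rose. Over all 18390 genes tested in both, the dnRARa difference correlated with the untreated I-III to IV-VI difference at r = 0.638 (Spearman 0.627), and by pair at 0.658 for replicate 1 and 0.531 for replicate 2; these are correlations across genes, which are not independent. The relation was thus present in the pair without the array of lower signal. Without dnRARa replicate 2, 13 of the 13 called falls tested fell in untreated tubules, and of 17 called rises only 2 were tested there, both of which rose.

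**Figure D3:**
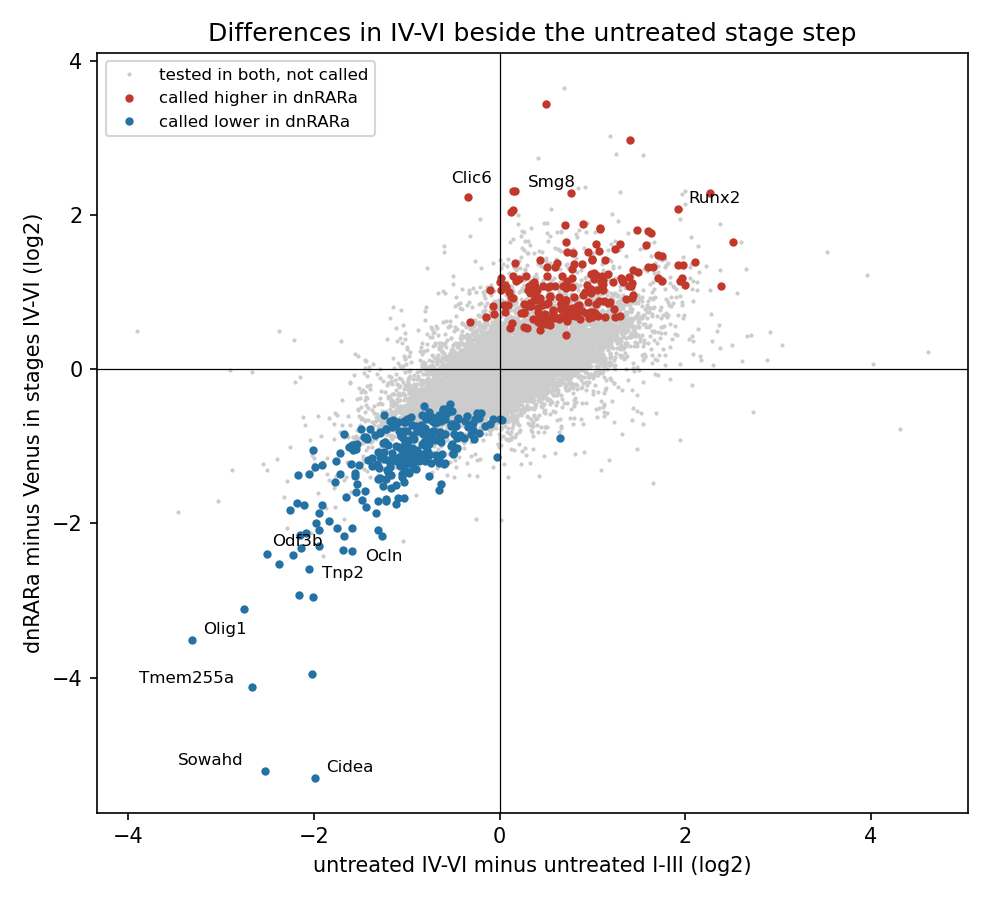
Difference of dnRARa minus Venus in stages IV-VI (vertical, log2) against the difference of untreated IV-VI minus untreated I-III (horizontal, log2), 1 point per gene tested in both, with called rises in red and called falls in blue. Nearly all called falls lie in the lower left and most called rises in the upper right.

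Cidea is 1 example of how the arms lay around the untreated level. Its untreated mean was 0.97 ± 0.53 in stages I-III, -1.02 ± 1.00 in IV-VI, 3.76 ± 0.32 in VII-VIII and 2.79 ± 0.46 in IX-XII (SD, n = 2 each). Stages IV-VI were thus the low point of Cidea without virus, and dnRARa at -6.13 ± 1.77 lay below it while Venus at -0.83 ± 0.69 lay close to it. In all 12 of the largest falls both dnRARa arrays were below the untreated mean of IV-VI. The Venus mean was above that untreated mean in 11 of the 12, so the arms lay on either side of it. In 11 of the 12 the untreated tubules had also fallen from I-III to IV-VI. The exception was Cidea itself, whose untreated step of -1.99 was not called (limma adjusted p = 0.154). On the untreated IV-VI arrays the dimmest spot above background lay at -4.89 and -5.24. The dnRARa levels of Sowahd, Olig1, Oit3 and Ocln were under both values, so their distance below the untreated mean is limited by signal. In 6 of the 12 largest rises both dnRARa arrays were above the untreated IV-VI mean, and in 6 of the 12 that mean lay between the means of the arms. For Smg8 and Hacl1 the arm that stood apart was Venus. Smg8 had means of -3.84 ± 0.39 in dnRARa and -6.16 ± 0.54 in Venus, and untreated tubules lay at -3.51 ± 0.11 (SD, n = 2 each). For Glipr1l2 both arms lay below the untreated mean of -2.49, dnRARa at -4.23 and Venus at -6.27.

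The same comparison was made per array by placing each one on the line from untreated I-III (0) to untreated IV-VI (1), by least squares over 3316 genes called between these 2 groups. The stage IV-VI dnRARa arrays lay at 1.08 and 1.17, and the Venus arrays at 0.59 and 0.66. Untreated IV-VI arrays lay at 0.97 and 1.03, around a mean that is 1 by construction. Both dnRARa arrays were thus beyond the untreated mean of their own stages, and both Venus arrays were short of it. The genes were chosen by their difference on the untreated arrays, so other arrays can fall short of 1 for that reason alone. The shortfall of Venus can therefore not be read by itself. An exact permutation test of 2 against 2 arrays cannot give a two-sided p below 0.333. In stages I-III the dnRARa arrays lay at 0.34 and 0.55, and the Venus arrays at 0.23 and 0.24. In stages VII-VIII the arms overlapped, at 1.05 and 0.90 in dnRARa and 0.89 and 1.06 in Venus. On the next step, from untreated IV-VI to VII-VIII, the stage IV-VI arrays lay at 0.03 and 0.05 in dnRARa and -0.05 and -0.03 in Venus, all near the starting point. The untreated arrays were scanned on another day and slides, and the part that the stage make-up of the tubules has in the called differences was not tested.

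**Figure D4:**
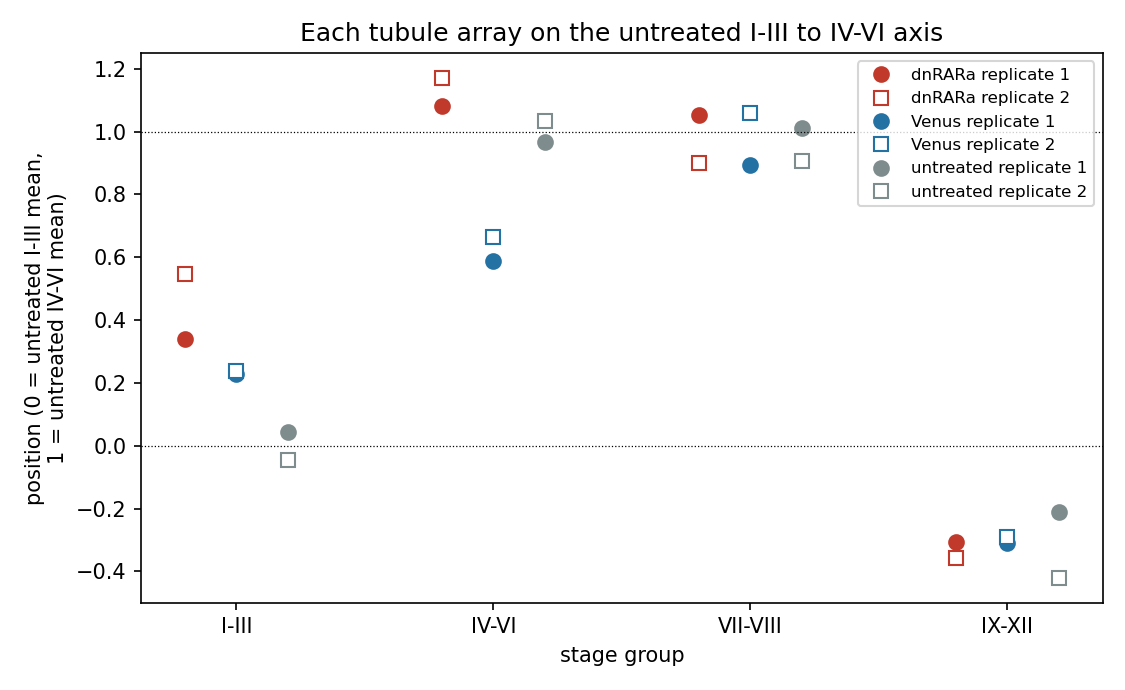
Position of each tubule array on the line from the untreated I-III mean (0) to the untreated IV-VI mean (1), by stage group, with dnRARa in red, Venus in blue and untreated in grey, filled circles for replicate 1 and open squares for replicate 2. In stages IV-VI dnRARa lies at 1.08 and 1.17 and Venus at 0.59 and 0.66, while in VII-VIII the arms overlap.

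By the stage of highest untreated level, 175 of the 220 rises peaked in stages VII-VIII (79.5%, beside 29.8% of all genes tested) and 216 of the 270 falls peaked in IX-XII (80.0%, beside 33.1%). Between untreated IV-VI and VII-VIII, where 38.9% of 19188 genes were called, 120 of 214 rises tested rose further (56.1%) and 7 fell. The falls were split there, with 77 of 262 higher and 67 lower. Neither untreated step was called for 40 of 209 rises and 22 of 257 falls. Of the named genes these were Smg8, Hacl1, Glipr1l2, the inhibin alpha gene Inha, the smooth muscle myosin gene Myh11 and Prm1.

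No cell type list held more than 3 called markers, reached among 12 elongating spermatid markers, beside 2.19% of all genes called. Lists this short give only a rough share. Of the Sertoli markers, 8 were lower and 1 higher at an unadjusted limma p under 0.05. Their arms did not overlap for 9 markers downwards and 2 upwards, beside 27.8% and 26.9% of all genes tested. Of 23 Sertoli markers tested 1 was called: Inha, whose product is a subunit of inhibin, the Sertoli hormone that restrains FSH. Inha was at 1.53 and 0.96 in dnRARa, against 2.31 and 2.22 in Venus, a difference of -1.02 (SE 0.21, limma adjusted p = 0.0281). Both dnRARa arrays were the lower, and a dimmer probe gave -0.89; the adjusted p was 0.408 without dnRARa replicate 2, 0.168 without Venus replicate 1 and 0.120 without Venus replicate 2. Inhbb, for a beta subunit, differed by -1.28 (limma adjusted p = 0.0513) and Fshr, the FSH receptor, by -1.07 (limma adjusted p = 0.130), neither of which was called. The summed linear level of the Sertoli markers overlapped between the arms, at 199 and 213 in dnRARa and 195 and 216 in Venus, relative to a 75th percentile of 1.

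Of 12 elongating spermatid markers 3 were called, a larger share than the 2.19% of all genes tested. None of 10 spermatogonia or 18 round spermatid markers was called, with medians of 0.20 and 0.26 and with 14 of the 18 round spermatid markers above 0. Of 17 spermatocyte markers only Ccna1, a cyclin of meiosis, fell (difference -0.95, SE 0.20, limma adjusted p = 0.0310). Arms did not overlap upwards for 10 of 18 round spermatid, 10 of 17 spermatocyte and 5 of 10 spermatogonia markers. Downwards this held for 2, 4 and 2 of them. For the elongating spermatid markers it held for 4 upwards and 5 downwards. The shares over all genes tested were 26.9% upwards and 27.8% downwards. The summed level of elongating spermatid markers was 1021 and 957 in dnRARa, against 1418 and 1221 in Venus. The 3 called markers, Tnp1, Tnp2 and Prm1, summed to 190 and 160 in dnRARa, against 597 and 467 in Venus. They were picked by their calls, so a gap between the arms in their sum follows from that choice. Prm1 entered the sums by its brightest probe, which gave -1.49, while its other probes gave 0.11 and 0.25. Its share of the gap thus depends on the probe. The 9 elongating spermatid markers that were not called summed to 831 and 797 in dnRARa, against 821 and 754 in Venus, and so overlapped. Cdk1, the kinase of mitosis and meiosis, fell by 0.68 (SE 0.15, limma adjusted p = 0.0406), the 1 called gene of 21 cell cycle genes tested. When 1 array was left out, Cdk1 lost its call in each of the 4 fits and Ccna1 in the 3 fits other than the one without dnRARa replicate 1.

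All 9 peritubular myoid markers were below 0, with a median of -0.50, and 1 was called, beside 2.19% of all genes tested. It was the smooth muscle myosin Myh11 (difference -0.73, SE 0.17, limma adjusted p = 0.0406), which lost its call whichever of the 4 arrays was left out. The summed level of the myoid markers was 30.5 and 28.1 in dnRARa, against 37.4 and 37.1 in Venus. For 7 of the 9, both dnRARa arrays were below both Venus arrays, beside 27.8% of all genes tested. Of 11 Leydig markers tested 9 were below 0 and none was called; their sum was 38.5 and 37.7 in dnRARa, against 32.1 and 62.3 in Venus, so that Venus replicate 2 was the high array. The same array was the highest for the macrophage and immune markers, at 11.1 and 9.62 in dnRARa, against 9.12 and 15.2 in Venus, and for the endothelial markers, at 1.63 and 1.54 in dnRARa, against 1.33 and 2.67 in Venus, with no gene called of 13 and 11 tested. Alas2, the haem synthesis enzyme of red cells, was at 1.53 and 0.78 in dnRARa, against 2.30 and 2.33 in Venus (difference -1.16, SE 0.24, limma adjusted p = 0.0309), while the globin gene Hba-a1 differed by 0.07. The part of these cells in the falls was not tested.

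No gene of the 3 retinoid lists was called, but with 2.19% of all genes called, lists this short can hold none in any case. Arms did not overlap for 4 receptors upwards and 0 downwards. For the synthesis, storage and degradation genes this held for 3 upwards and 9 downwards, and for the textbook targets for 2 and 5. The shares over all genes were 26.9% upwards and 27.8% downwards. None of 5 retinoic acid receptors, 14 genes of retinoic acid synthesis, storage and degradation, or 10 textbook targets tested was called, with medians of 0.39, -0.30 and -0.26. Rxra, the shared receptor partner, came nearest at 0.40 and 0.54 in dnRARa, against -0.75 and -0.53 in Venus. Both dnRARa arrays were higher, but the difference of 1.11 had a limma adjusted p of 0.0571, and a second probe of Rxra gave 0.31. Crabp1, a retinoic acid binding protein, differed by -0.55 (limma adjusted p = 0.0711). Dusp1, a phosphatase of the MAP kinases and an immediate early gene, rose by 0.76 (SE 0.18, limma adjusted p = 0.0455), the 1 called gene of 15 in its list, whose call was lost whichever of the 4 arrays was left out. In the other lists no gene was called: stage-regulated Sertoli genes (14 tested), androgen-responsive Sertoli genes (8), lysosome and phagocytosis (21), cholesterol synthesis (17), interferon response (17) and extracellular matrix (18). Irf7, a transcription factor of the interferon response, differed by -1.47 at a limma adjusted p of 0.0513, which did not pass.

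Whether the dnRARa effect of stages IV-VI differed from that of other stages was tested as an interaction, in which each slide holds both stage groups of an arm. Against stages VII-VIII, 25 of 23535 genes were called (0.106%), 1 with a higher effect in IV-VI (0.00425%) and 24 with a lower one (0.102%). Against the mean of the other 3 stage groups, 47 of 24131 were called (0.195%), 9 higher (0.0373%) and 38 lower (0.157%). By limma these counts were 0 (with 1188 genes at an unadjusted p under 0.05) and 18 without Venus replicate 2 of stages VII-VIII, 5 and 13 without dnRARa replicate 2 of stages IV-VI, and 128 and 90 without dnRARa replicate 1 of stages VII-VIII. With the replicate number as a block, which within an arm is also the slide, the counts were 53 and 85. With each array left out in turn, the second count ranged from 10 to 116.

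Tnp2, Odf3b, Cyp2a12 and Rgs17, a regulator of G protein signalling, had an effect in stages IV-VI that differed from the others in both tests. Tnp2 differed by -0.35, -2.60, 0.29 and 0.21 in the 4 stage groups, from I-III through IX-XII. Only in IV-VI was it much lower in dnRARa, and its effect there differed from that in VII-VIII by -2.89 (SE 0.48, limma adjusted p = 0.0402). Odf3b differed by -0.31, -2.35, 0.49 and 0.01 in the 4 stage groups, and Cyp2a12 by -0.29, -2.16, 0.63 and 0.26; their interactions against VII-VIII were -2.84 and -2.79 (limma adjusted p = 0.0133 and 0.0204). Rgs17 differed by -0.50, -1.67, 1.16 and 0.48, with an interaction of -2.83 (limma adjusted p = 0.0301). The call of all 4 in that interaction was lost without Venus replicate 1 of IV-VI and without either Venus array of VII-VIII, and all but Odf3b also lost it without dnRARa replicate 2 of IV-VI. Tnp2 lost it under 9 of the settings run, among them median scaling, a normexp correction and no filter on dim probes, and Rgs17 under 8, normexp among them. Tex37 had a like profile, at -0.56, -2.09, 0.32 and 0.07, but its interaction against VII-VIII of -2.41 was not called (limma adjusted p = 0.139).

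Cidea and its companions were lower in every stage group. Cidea differed by -3.25 in stages I-III, -5.30 in IV-VI, -2.85 in VII-VIII and -2.86 in IX-XII. Sowahd differed by -2.21 in I-III and -1.91 in IX-XII, where all its arrays were well above background. Tmem255a differed in stage order by -1.71, -4.12, -2.84 and -1.29. Ocln differed by -0.87, -2.36, -2.27 and -1.20. Since at least 1 dnRARa array of IV-VI was not well above background for each of the 4 genes, the stages are not ranked by size here. None of their interactions was called, at adjusted p-values of 0.517, 0.0882, 0.156 and 0.563 by limma against the mean of the other stages. Of the 12 largest falls, 8 were negative in all 4 stage groups and 6 by at least 1 unit in each. Of the 12 largest rises, 6 were positive in all 4, among them, in stage order, Clic6 at 1.70, 2.31, 0.93 and 0.78 and Smg8 at 2.15, 2.32, 2.44 and 2.78. Runx2 had its difference in the earlier stages, at 1.49 and 2.08, against 0.15 in VII-VIII and -0.73 in IX-XII.

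**Figure D5:**
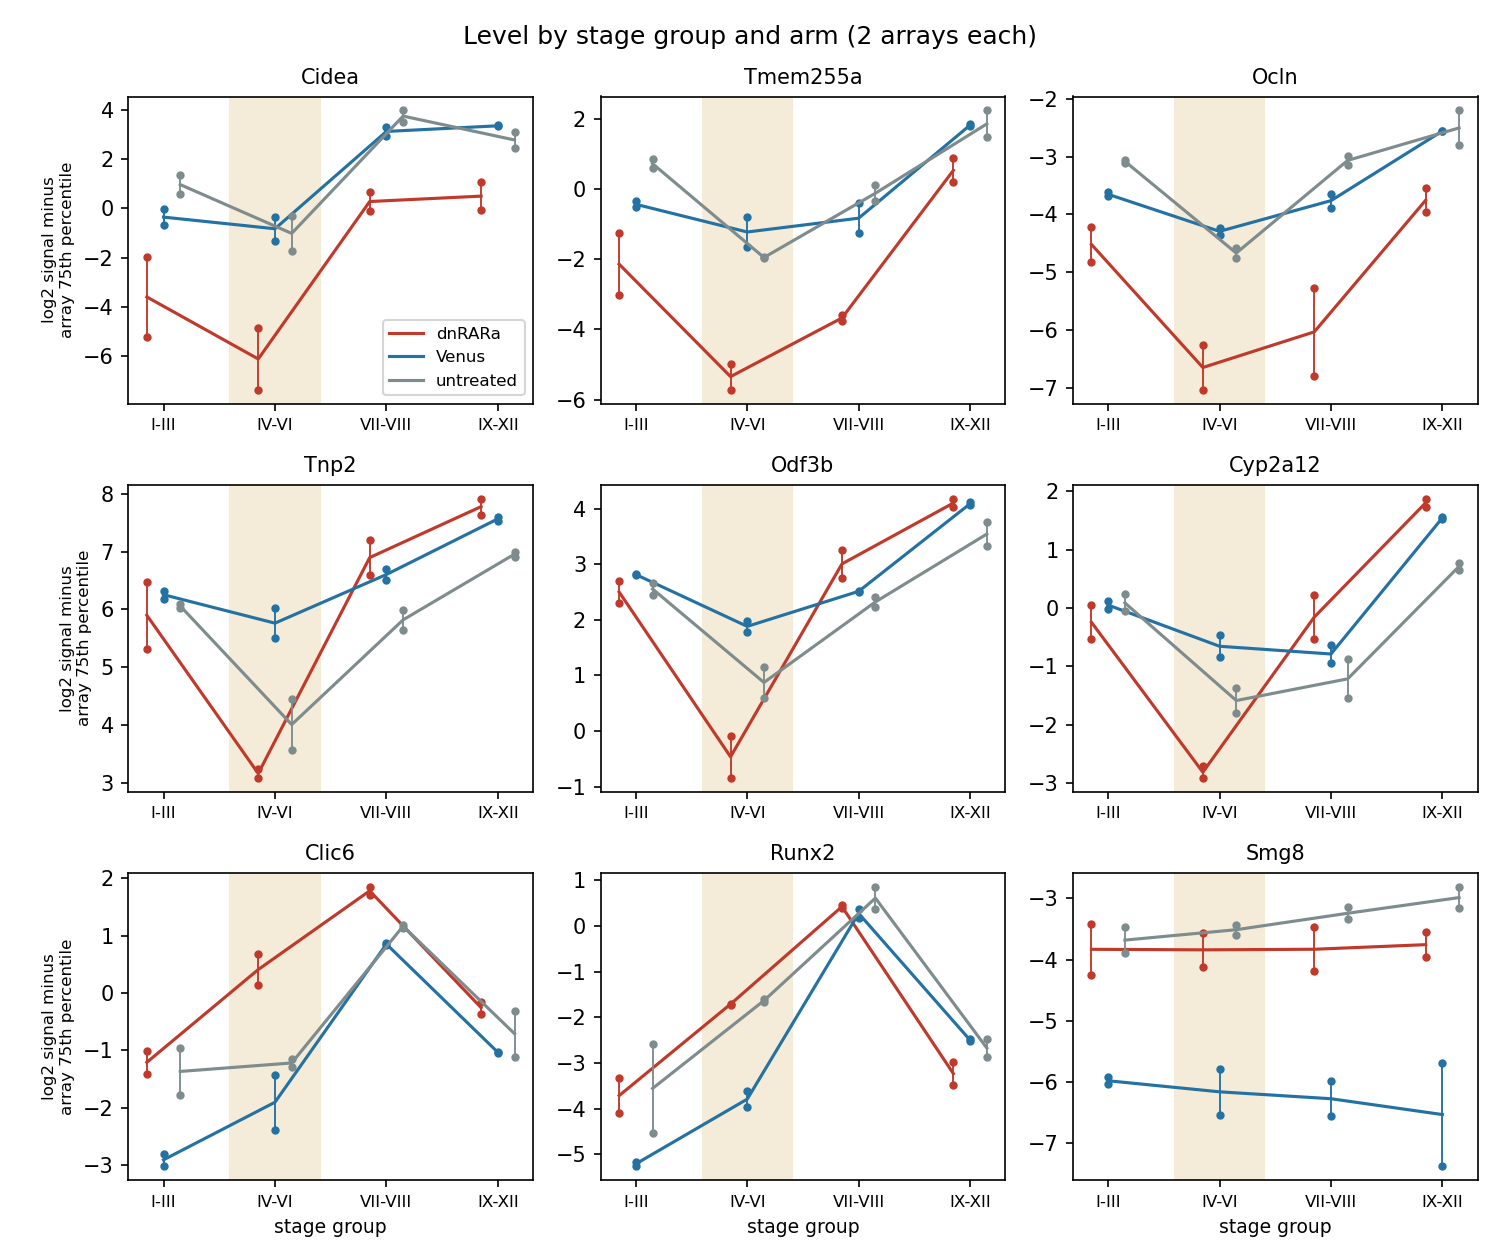
Level of 9 genes by stage group (log2 signal minus the array's 75th percentile) in dnRARa (red), Venus (blue) and untreated tubules (grey); points are the 2 arrays, lines join their means and the shaded band marks stages IV-VI. Cidea, Tmem255a and Ocln are lower in dnRARa in all 4 stage groups, Tnp2, Odf3b and Cyp2a12 mainly in IV-VI, and for Smg8 the Venus arm lies apart from both others.

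Over all called genes the stages next to IV-VI showed the effect unequally. In stages I-III, 218 of the 220 rises were above 0 (99.1%, beside 50.2% of all genes tested) and 265 of the 270 falls were below 0 (98.1%, beside 49.8%), with median differences of 0.46 and -0.32. In stages VII-VIII, 189 rises were above 0 (85.9%, beside 56.8%) and 117 falls below it (43.3%, beside 43.2%). In stages IX-XII the shares were 117 of 220 rises (53.2%, beside 55.7%) and 148 of 270 falls (54.8%, beside 44.3%). In VII-VIII the share of falls below 0 was thus near that of all genes, and the share of rises above 0 was larger than that of all genes. These stage groups use other arrays but the same slides.

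Cultured Sertoli cells given retinoic acid offered values from a separate experiment, described here without a test. Cidea was at 7.07 and 6.98 with retinoic acid, against 2.67 and 2.58 with vehicle. Tmem255a was at 4.97 and 5.00 with retinoic acid, against 0.22 and 0.11 with vehicle, and Esyt3 at 4.26 and 4.24, against 1.30 and 1.34. All 3 genes were far higher with retinoic acid in culture. Cidea and Tmem255a were lower in dnRARa tubules, while the direction of Esyt3 there depends on the probe. Ocln was 1.16 higher with retinoic acid, Sowahd 1.03 higher and Inha 0.97 higher on the log2 scale. Of the 211 dnRARa falls measured in these cells, 46 were at least 1.5-fold higher with retinoic acid (21.8%, beside 6.77% of all 18673 genes) and 16 at least 1.5-fold lower (7.58%, beside 5.91%). Of 157 dnRARa rises measured, 15 were higher (9.55%) and 14 lower (8.92%). Tnp2 was well above background on 1 of these 4 arrays and Cyp2a12 on none.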

How the data were processed

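Total RNA (0.2 µg) was labelled with Cy3 and hybridised to 1-colour Agilent arrays. The deposited scanner files hold spot intensities that Agilent Feature Extraction 9.5.3.1 had already background-corrected, per the file headers (9.5 per the submitters' processing notes), beside deposited 0 or 1 marks, coded by the authors' software as other values, for spots well above background, saturated or outlying. From 45018 spots, 1639 control spots and outlying spots were left out. The log2 intensity minus each array's 75th percentile was used, spots of a probe were averaged, and the brightest probe stood for its gene. Probes were named through RefSeq accessions (22951) or symbols (10) of 41174; 18213 kept the name in the file.

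Genes were tested if 1 or more of the groups compared had the probe marked as above background in both replicates. A limma 3.58.1 model (R 4.3.3, with version 1.17.8 of data.table) with 12 groups was fitted to 24 tubule arrays; its recovery was tested on simulated data. Named genes were the 12 largest called rises and falls with a symbol that moved the same way in both pairs, 12 genes looked up in every case, called or leading members of the 23 lists (up to 4 each) and the 4 largest called interactions in each direction. The members and lists were chosen with earlier results of these data known. The limma model did not pair dnRARa with Venus by replicate number. Correlations of same-numbered deviations between the arms ran from -0.08 to 0.02 within a stage and up to 0.18 across stages. Within an arm, where same-numbered arrays share a slide, the correlations ran from 0.08 to 0.52. The counts by replicate pair did use the number, so those pairs rest on number and scan day alone. Alternatives were other scalings, background corrections, filters, probe rules, model terms and each array left out. The number of arrays limits the precision.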

Additional observations from a re-analysis of the deposited data

Results flagged for a closer look

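The genes here are those whose dnRARa effect in stages IV-VI differed from its effect in other stages by the limma interaction test, with Benjamini-Hochberg adjustment. Against stages VII-VIII the difference of effects was -2.89 for Tnp2 (adjusted p = 0.0402), -2.84 for Odf3b (0.0133), -2.83 for Rgs17 (0.0301) and -2.79 for Cyp2a12 (0.0204). Against the mean of the other stage groups it was -2.65 for Tnp2 (adjusted p = 0.0215), -2.41 for Odf3b (0.00978), -2.36 for Cyp2a12 (0.0168) and -2.41 for Aqp8 (0.0261), a water channel gene. For Aqp8 the value came from stages IX-XII, where dnRARa averaged 4.18 and Venus -2.16, while in IV-VI its difference was 0.18. The effect in IV-VI was the higher one for Zbed4 by 1.16 (adjusted p = 0.0316), B3gntl1 by 1.03 (0.0425) and Vmn2r7 by 0.95 (0.0485). A second probe of Zbed4 gave -0.05 for dnRARa minus Venus in IV-VI, against 1.03 for the first. When arrays were left out or settings changed, the call was lost under 20 settings for Vmn2r7, 18 for B3gntl1, 15 for Zbed4 and 5 for Aqp8. Against stages VII-VIII it was lost under 9 settings for Tnp2, 8 for Rgs17, 5 for Cyp2a12 and 4 for Odf3b.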

How the results depend on the processing

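Counts of called genes depended on the processing. The 37 named genes called in dnRARa minus Venus kept their direction with each of the 4 arrays left out. That outcome was fixed in advance, because the arms of every called gene do not overlap. Of 82 other named genes, 11 changed sign in at least 1 of these fits. For dnRARa minus Venus in stages IV-VI (490 as reported), median scaling called 274 (94 higher, 180 lower), normexp on the median signal 35 (11 higher, 24 lower), no filter on dim probes 290, an intensity trend 922 and only the arrays compared 0, with 2581 at an unadjusted p under 0.05 in limma. The interaction with VII-VIII (25 as reported) had 74 calls with quantile scaling, 9 with normexp, 41 above background on every array, 0 with only the arrays compared (1803 at an unadjusted p under 0.05), 128 with an intensity trend and 51 with slide as a random block. The interaction with the other stages (47 as reported, 9 of them higher) had 110 with quantile scaling (35 higher, 75 lower), 19 with median scaling, 13 with normexp (1 higher, 12 lower), 27 with no filter, 31 with the mean of a gene's probes, 329 with only the arrays compared (192 higher, 137 lower), 226 with an intensity trend and 93 with slide as a random block. For untreated IV-VI minus I-III (3337 as reported), normexp called 5401 (3740 higher, 1661 lower), median scaling 3092 (1043 higher, 2049 lower) and only the arrays compared 0, with 2969 at an unadjusted p under 0.05. For untreated VII-VIII minus IV-VI (7472 as reported), normexp called 3169 and only the arrays compared 3256. The causes were not tested.

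With each array left out in turn, limma called 30 to 463 for dnRARa minus Venus, 0 to 128 and 10 to 116 for the interactions with VII-VIII and the other stages, 1552 to 2421 for untreated IV-VI minus I-III, and 5634 to 6516 for untreated VII-VIII minus IV-VI. With the replicate block the counts were 692 (all 490 among them), 53 and 85 for dnRARa minus Venus and its interactions; arrays of one number share a scan day between the arms and a slide within an arm. The untreated steps of the called genes under left-out arrays and other scalings were added after seeing the data: with quantile scaling 297 of 359 falls fell and 168 of 285 rises rose. Genes near background are limited by signal, most on dnRARa replicate 2.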
